A study of Mus musculus with 12 samples.

Results

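Pbx, Meis and Pknox genes encode homeodomain proteins that act as partners of HOX proteins, and 8 of them (Pbx2, Pbx3, Pbx4, Meis1, Meis2, Meis3, Pknox1 and Pknox2) were followed in mouse embryonic stem (ES) cells that lost or kept the chromatin protein gene Smchd1. They are the rows of the deposited expression table with these names, 8 of 25965 genes, picked by name and taken across all 12 libraries. The table holds a further Pbx gene that is not analysed here, so sums and shares over these genes leave it out. The 6 groups are Smchd1 fl/fl (floxed, not deleted) and Smchd1 del/del (deleted) cells at days 1, 5 and 8 of differentiation towards neuromesodermal progenitors, with 2 libraries a group. All cells were C57BL/6, labelled male, and replicate 1 was line 1 and replicate 2 was line 3 in every group. Each line grew out of a single E3.5 blastocyst in 2i+LIF medium and was then divided. The del/del part received the retroviral vector MSCV-Cre-puro and was selected with puromycin, while the fl/fl part received neither, so the deletion cannot be told apart from transduction and selection in any comparison of genotypes. Cells of both genotypes passed through serum+LIF, lost LIF and gained Fgf2, received a Gsk3 inhibitor 2 days later and Gdf11 a further 4 days later, so that day 5 precedes Gdf11 and day 8 follows it. The undifferentiated sampling is day 1 in the sample titles and day 0 in the protocol, and is called day 1 here.

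These proteins share a short loop extension in the homeodomain and are called TALE proteins for it. PBX proteins bind DNA together with HOX proteins and sharpen which sites a HOX protein uses. MEIS and PKNOX (also called PREP) proteins bind PBX proteins through a domain outside the homeodomain, favour their entry into the nucleus, and join PBX and HOX proteins on DNA, and MEIS proteins can also bind posterior HOX proteins directly. In the embryo Meis genes respond to retinoic acid, and several of these genes are active in the trunk and limb mesoderm and in the hindbrain.

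The libraries held 1.51 to 8.67 M reads in genes (M is mega), which was 10.1 to 27.8% of the reads that each deposited value was divided by. Smchd1, the targeted gene, had levels of 3.99 to 5.36 log2 RPM in fl/fl and 1.82 to 2.57 in del/del libraries, with both del/del libraries below both fl/fl libraries at every day. RPM is reads per M reads, and levels here are log2 RPM after each library was shifted so that its median tested gene had no difference from that gene's mean over the libraries. Without that shift the log2 difference of the median gene (del/del minus fl/fl) was 0.16, -0.40 and 0.90 at the 3 days in turn, so changes are given relative to it. Pluripotent cell markers summed to between 133 and 170 RPM at day 1 and between 57.5 and 83.9 at day 8. Neuromesodermal and caudal markers summed to between 2.47 and 3.23 RPM at day 1, between 105 and 169 at day 5, and between 37.3 and 43.3 at day 8. 2 libraries stood apart: fl/fl day 8 of line 3 was the shallowest, and del/del day 5 of line 3 differed from its partner for 4 of the 8 genes. The median absolute log2 difference between the 2 libraries of a group was 0.41 for fl/fl day 8, 0.39 for del/del day 5 and 0.14 to 0.23 for the other groups. In these bulk samples, fewer cells of a type and less RNA per cell cannot be told apart.

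The stretches upstream of 4 genes are shown because these genes had the widest spans of group means: Meis1, Meis2 and Meis3, which rose over time, and Pbx4, which was lower in del/del cells at day 8. RefSeq (GRCm38.p6) listed a start for 5 of the 8 genes (these and Pbx2), and each stretch is the longest run free of annotated exons within the 250 bases before that start. Meis1 is at chr11:19018986-19019219 (minus strand), Meis2 at chr2:116064722-116064801 (minus strand), Meis3 at chr7:16175185-16175274 (plus strand) and Pbx4 at chr8:69832374-69832490 (plus strand), and the Meis2 and Meis3 stretches lie within the annotated span of the gene, outside its exons. Capitals mark the only motif match, and each sequence reads 5′ to 3′ towards the start.
Meis1: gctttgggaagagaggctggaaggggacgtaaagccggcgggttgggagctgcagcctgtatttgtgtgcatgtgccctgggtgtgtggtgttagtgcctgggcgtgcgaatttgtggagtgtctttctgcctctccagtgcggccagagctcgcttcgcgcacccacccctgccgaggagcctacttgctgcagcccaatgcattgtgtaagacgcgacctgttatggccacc
Meis2: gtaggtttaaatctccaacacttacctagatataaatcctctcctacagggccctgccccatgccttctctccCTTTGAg
Meis3: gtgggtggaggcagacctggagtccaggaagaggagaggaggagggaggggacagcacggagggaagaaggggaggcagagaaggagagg
Pbx4: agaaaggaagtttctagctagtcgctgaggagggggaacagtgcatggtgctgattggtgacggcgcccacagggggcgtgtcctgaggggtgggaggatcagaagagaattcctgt
Both strands of the 250-base windows of the 5 genes were searched for TGACAG (bound by MEIS and PKNOX), TGATNNAT (bound by PBX with HOX), CTTTGA (bound by LEF and TCF, the factors of Wnt signalling), AGGTCA (bound by retinoic acid receptors) and TTTATG (bound by CDX), none of which contains another. The single match was CTTTGA upstream of Meis2. Of 32851 RefSeq windows of the same length, 13.8% held CTTTGA, 15.9% TGACAG, 7.68% TGATNNAT, 14% AGGTCA and 10.8% TTTATG. The windows ranged in GC content from 47.6% (Meis2) through 55.6% (Pbx4), 59.6% (Meis1) and 63.6% (Meis3) to 77.6% (Pbx2), against a median of 52.4% over all windows.

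**Figure D1:**
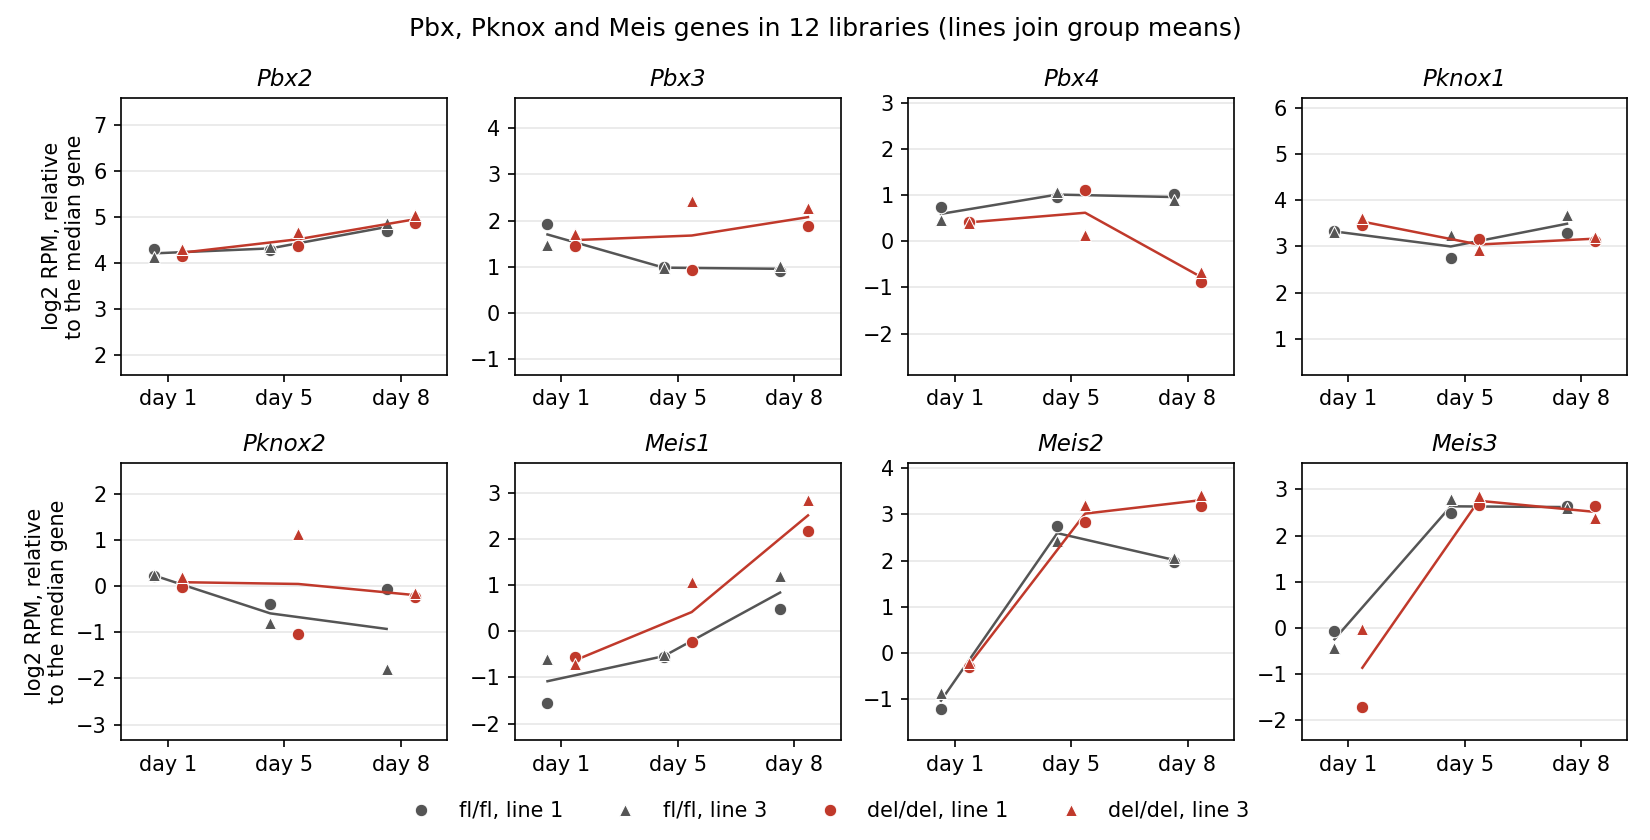
Levels of the 8 genes in each library, as log2 RPM relative to the median gene (vertical axes span the same range), against sampling day; grey is fl/fl, red is del/del, circles are line 1, triangles are line 3, and lines join group means. Meis2 and Meis3 stand near or below 0 at day 1 and above 1.9 from day 5, Meis1 is highest in del/del at day 8, and Pbx4 is lowest there.

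All 8 genes had reads in every library and passed the filter for testing, which kept 14063 genes. To compare genes, levels were divided by the annotated exon length of each gene. Which of these exons the cells used was not tested, so the order of genes depends on the annotation and is a rough one. On this scale (log2 RPM per kb, mean of 12 libraries) Pbx2 stood at 2.64, Pknox1 at 0.47, Meis3 at -0.099 and Pbx4 at -0.68. Next came Pbx3 at -1.12, Meis2 at -1.98, Meis1 at -3.14 and Pknox2 at -3.59. Pbx2 thus stood first of the 8 on this scale, and in each group mean as well. The order below it moved with time and genotype. In fl/fl cells at day 8 the level per kb was 0.95 for Meis3, 0.70 for Pknox1, -0.19 for Pbx4, -1.58 for Meis2, -1.66 for Pbx3 and -2.56 for Meis1. In del/del cells at day 8 it was 0.85 for Meis3, 0.38 for Pknox1, -0.28 for Meis2, -0.54 for Pbx3, -0.88 for Meis1 and -1.93 for Pbx4. Per kb of annotated exon, Pbx4 thus stood above Meis1, Meis2 and Pbx3 in the controls and below all of them in the deleted cells. The libraries of Meis2 and Pbx3, neighbours in this order, overlapped in both genotypes, as did those of Pbx3 and Meis1 in del/del cells. Pknox2 was last, at -4.30 in fl/fl and -3.56 in del/del cells.

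The 3 Meis genes made up 2.90 to 4.97% of the summed level per kb of the 8 genes at day 1 and 23.9 to 25.2% at day 5. At day 8 their share was 18.1 to 19.8% in fl/fl and 21.9 to 23.6% in del/del libraries, with no overlap between the genotypes. Meis3 was not called between the genotypes at that day (log2 difference -0.105 ± 0.45 SE). This gap therefore restates the differences of Meis1 and Meis2 described below and adds no support to them. How often other sets of genes separate in this way was not counted. The summed level of the 8 genes lay between 7.77 and 8.87 RPM per kb at day 1, between 10.01 and 12.9 at day 5, and between 12.3 and 14.8 at day 8. The 3 Pbx genes followed took 73.9 to 77.8% of it at day 1 and 62.6 to 68.5% later. These sums and shares depend on the annotated exon lengths as well.

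Meis2 and Meis3 rose from low levels between day 1 and day 5 in both genotypes, by 7.38- to 12.4-fold. Meis2 (chromosome 2, 115863064 to 116065839, mm10, minus strand), first found as a retinoic acid-induced gene, had 14 and 20 reads in fl/fl and 32 and 39 in del/del at day 1, and 150 and 215 in fl/fl and 175 and 185 in del/del at day 5. Its levels were -1.21 and -0.87 in fl/fl and -0.30 and -0.22 in del/del at day 1, and 2.76 and 2.43 in fl/fl and 2.83 and 3.21 in del/del at day 5. All 4 libraries of day 5 lay more than 2 log2 units above all 4 of day 1. Meis2 rose 12.4-fold in fl/fl cells (log2 3.63 ± 0.27 SE, n = 2 against 2, adjusted p = 7.19e-06 by limma) and 9.72-fold in del/del cells (3.28 ± 0.27, adjusted p = 1.16e-05 by limma).

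Meis3 (chromosome 7, 16175090 to 16186510, plus strand), a gene best known from hindbrain patterning, had levels of -0.064 and -0.43 in fl/fl and -1.72 and -0.016 in del/del at day 1. At day 5 it stood at 2.48 and 2.78 in fl/fl and 2.65 and 2.85 in del/del, and at day 8 at 2.65 and 2.59 in fl/fl and 2.64 and 2.39 in del/del. The 8 libraries of days 5 and 8 lay between 2.39 and 2.85, while the del/del library of line 1 at day 1, with 12 reads, lay below the other 3 of that day. Meis3 rose 7.38-fold in fl/fl cells (log2 2.88 ± 0.45 SE, adjusted p = 0.000614 by limma) and 12.3-fold in del/del cells (3.62 ± 0.45, adjusted p = 0.000146) from day 1 to day 5.

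Meis2 and Meis3 were the 2 of 8 genes called from day 1 to day 5 in each genotype, both higher, where 40.9% of all tested genes were called in fl/fl (23% higher and 17.9% lower) and 39.5% in del/del (21.2% higher and 18.3% lower), at an adjusted p under 0.05. The other 6 genes had differences from -0.82 to 0.54 in fl/fl and from -0.50 to 1.04 in del/del cells over that time, none called. A difference between the genotypes in this step was tested directly and none of the 8 was called by limma or voom, where 0 of 14063 genes were by limma and 0 of the 8 had an unadjusted p under 0.05.

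Meis1 (chromosome 11, 18880430 to 19018958, minus strand), the partner of HOXA9 in blood stem cells and leukaemia, rose later. Its reads numbered 11 and 24 in fl/fl and 27 and 28 in del/del at day 1, and 15 and 28 in fl/fl and 21 and 42 in del/del at day 5. At day 8 they numbered 42 and 16 in fl/fl and 193 and 286 in del/del. At day 5 the levels were -0.56 and -0.51 in fl/fl and -0.23 and 1.07 in del/del, and by day 8 they stood at 0.48 and 1.2 in fl/fl and 2.18 and 2.85 in del/del. The 4 libraries of day 8 stood above those of day 5 of their own genotype, by the most in del/del cells. From day 5 to day 8 Meis1 rose 4.27-fold in del/del cells (log2 2.10 ± 0.53 SE, adjusted p = 0.028 by limma), and the difference in fl/fl cells was 1.38 ± 0.53 (adjusted p = 0.134). The 2 steps differed by 0.72 ± 0.75 (adjusted p = 0.677), which is within its error. The del/del call ended without the del/del library of line 1 at day 8 (2.43, adjusted p = 0.071), of line 3 at day 8 (1.76, adjusted p = 0.213) or of line 1 at day 5 (1.45, adjusted p = 0.108). It ended with only the 2 groups compared in the fit as well (adjusted p = 0.0993). Over the whole course Meis1 rose 3.79-fold in fl/fl cells (1.92 ± 0.53, adjusted p = 0.0098) and 8.81-fold in del/del cells (3.14 ± 0.53, adjusted p = 0.000549). The fl/fl call ended on the deposited scale (0.99, adjusted p = 0.186), without line 1 of fl/fl at day 1 (adjusted p = 0.0902) or without line 3 of fl/fl at day 8 (adjusted p = 0.0591). Exons of Meis1 overlap a same-strand transcript (Gm37818, 9.77% of its exon bases) and an antisense one (Gm16140, 8.51%), and whether reads were counted by strand was not given in the sources used here.

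Meis1 was 1 of 2 genes called from day 5 to day 8 in del/del cells, beside Pbx4 (lower, described with the genotypes), where 11.9% of all tested genes were called (7.24% higher and 4.67% lower). In fl/fl cells none of the 8 was called in this step by limma or by voom on read counts, where 6.73% of all genes were by limma (3.15% higher and 3.58% lower), and 3 (Pbx2, Meis1 and Pknox1) had an unadjusted p under 0.05, as did 24.9% of all genes. Over the whole course, day 1 to day 8, 4 of 8 were called in fl/fl (all higher, where 55.3% of genes were called, 28.5% higher and 26.8% lower) and 5 of 8 in del/del (4 higher and 1 lower, where 50.7% were called, 26.9% higher and 23.8% lower). The 3 Meis genes and Pbx2 were the higher ones in both genotypes and Pbx4 the lower one in del/del cells. These comparisons share their day 1 groups with the earlier ones.

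**Figure D2:**
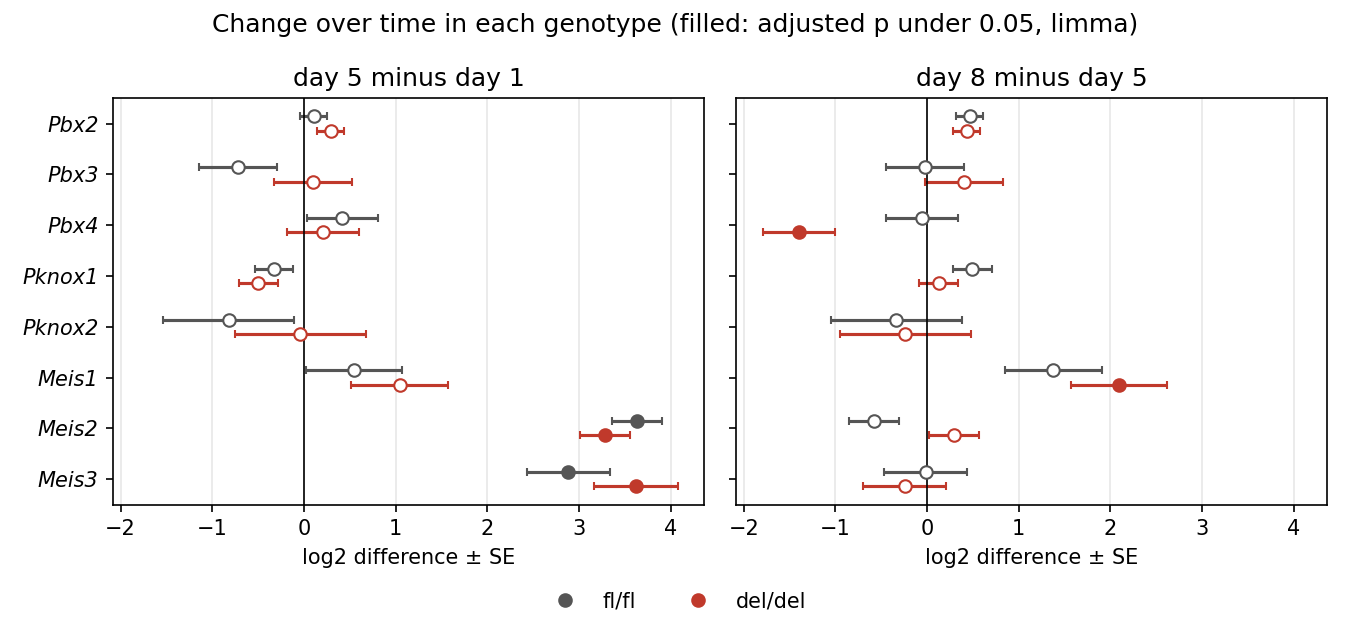
Change of the 8 genes from day 1 to day 5 and from day 5 to day 8 in each genotype, as log2 differences with their standard errors; grey is fl/fl, red is del/del, and filled points have an adjusted p under 0.05 (limma). Meis2 and Meis3 lie near 3 in the first step and near 0 in the second, and in the second step Meis1 and Pbx4 are filled in del/del cells alone, a contrast between genotypes that did not itself pass a test.

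Of the 5 Pbx and Pknox genes followed, Pbx2 changed with time in both genotypes, by a small amount. Pbx2 (chromosome 17, 34591266 to 34597400, plus strand), a broadly active gene that mice can live without, had 205 to 1305 reads a library. Its levels lay between 4.13 and 4.30 at day 1, between 4.29 and 4.67 at day 5, and between 4.69 and 5.04 at day 8. Every library of day 8 lay above every library of the earlier days. From day 1 to day 8 Pbx2 rose 1.49-fold in fl/fl cells (log2 0.57 ± 0.15 SE, adjusted p = 0.00733 by limma) and 1.65-fold in del/del cells (0.72 ± 0.15, adjusted p = 0.00198). On the deposited scale the fl/fl difference was -0.36 (adjusted p = 0.451) and the del/del one was not called (0.52, adjusted p = 0.359). The fl/fl call also ended without line 3 of fl/fl at day 1 (adjusted p = 0.0692) and with no filter on low values (0.26, adjusted p = 0.273). Its exons share 6.24% of their bases with the same-strand gene Gpsm3.

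Pbx3 (chromosome 2, 34171457 to 34373140, minus strand), which acts with MEIS1 and HOXA9 in leukaemia, had levels of 1.93 and 1.47 in fl/fl and 1.45 and 1.70 in del/del at day 1. At day 5 they were 0.99 and 0.97 in fl/fl and 0.93 and 2.42 in del/del, and at day 8 they were 0.90 and 1.01 in fl/fl and 1.87 and 2.27 in del/del. The fl/fl cells were thus lower after day 1 and the del/del cells of day 8 were not, but no time difference of Pbx3 was called (day 8 against day 1: -0.74 ± 0.43 in fl/fl, adjusted p = 0.160, and 0.50 ± 0.43 in del/del, adjusted p = 0.359, by limma). The fl/fl difference from day 1 to day 8 was called on the deposited scale (-1.67, adjusted p = 0.0177, where 43.1% of all genes were called lower). Leaving out the del/del library of line 1 or of line 3 at day 5, which is in neither group compared, left it at -0.74. The calls gained there rest on a smaller pooled standard error. Without both libraries that stood apart it was -0.80. From day 1 to day 5 the fl/fl difference of -0.72 was called with only the 2 groups compared in the fit (adjusted p = 0.0462, where 28.5% were called lower). Without both libraries that stood apart, neither of them in these groups, it stayed at -0.72.

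Pknox1 (chromosome 17, 31564749 to 31607680, plus strand), also called Prep1 and needed by the early epiblast, had the smallest span of group means, 0.54 log2 units. Its levels lay between 3.32 and 3.61 at day 1, between 2.75 and 3.25 at day 5, and between 3.13 and 3.69 at day 8. It was not called in any of the 12 comparisons. Pknox2 (chromosome 9, 36889965 to 37147314, minus strand), a relative with a narrower range of tissues, had 2 to 52 reads a library. Its levels ran from -0.018 to 0.24 at day 1, but from -1.04 to 1.13 at day 5 and from -1.80 to -0.052 at day 8. Its genotype differences of -0.15, 0.64 and 0.73 at days 1, 5 and 8, each with a standard error of 0.71, were not called. The 2 reads in the shallow fl/fl day 8 library (exact 95% Poisson interval 0.242 to 7.22, counting error only) enter the day 8 value, which was -0.14 without that library. From day 1 to day 8 in fl/fl cells Pknox2 differed by -1.16 (adjusted p = 0.191). It was called on the deposited scale (-2.09, adjusted p = 0.0352). Without the fl/fl library of line 1 at day 8 the difference was -2.03, and day 8 then rested on the shallow library with 2 reads. Without both libraries that stood apart, the shallow one among them, it was -0.28.

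At day 8, after Gdf11, Meis2 was higher and Pbx4 lower in del/del than in fl/fl cells. These were 2 of 8 genes called, 1 in each direction, where 15% of all tested genes were called (7.95% higher and 7.05% lower), so the share of 8 is not far from the background. Meis2 had 118 and 29 reads in fl/fl and 389 and 428 in del/del cells, at levels of 1.97 and 2.06 against 3.19 and 3.43. The genotypes did not overlap, and the gap between them was larger than the spread within either. How many of all genes separate in this way with 2 libraries against 2 was not counted. Meis2 was 2.46-fold higher in del/del cells (log2 1.30 ± 0.27 SE, n = 2 against 2, adjusted p = 0.0179 by limma). The call ended when the fl/fl library of line 3 (1.34, adjusted p = 0.0621), the del/del library of line 1 (1.42, adjusted p = 0.0553) or that of line 3 (1.18, adjusted p = 0.163) was left out, and when only the 2 groups compared were fitted (adjusted p = 0.0697).

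Pbx4 (chromosome 8, 69832624 to 69873163, plus strand), a member of the family best known from the testis, had 61 and 13 reads in fl/fl and 23 and 25 in del/del cells at day 8. Its levels were 1.02 and 0.90 against -0.89 and -0.67, again without overlap. At day 1 it had stood at 0.74 and 0.45 in fl/fl and 0.42 and 0.40 in del/del, and at day 5 at 0.96 and 1.07 in fl/fl and 1.11 and 0.13 in del/del. The del/del library of line 3 at day 5, which stood apart, was thus the lowest of its day. Both del/del libraries of day 8 lay below it and below every other earlier library. Pbx4 was 3.34-fold lower in del/del cells at day 8 (log2 -1.74 ± 0.39 SE, adjusted p = 0.0204 by limma). Left on the deposited scale, whose median gene is itself 0.90 higher in del/del, the difference was -0.86 ± 0.62 and the call ended (adjusted p = 0.259). It also ended with no filter on low values (-1.45, adjusted p = 0.0677) and with only the 2 groups compared in the fit (adjusted p = 0.118). The same held without the fl/fl library of line 3 (-1.80, adjusted p = 0.0713), the del/del library of line 1 (-1.63, adjusted p = 0.0822) or that of line 3 (-1.85, adjusted p = 0.131). In del/del cells Pbx4 fell from day 5 to day 8 (log2 -1.40 ± 0.39, adjusted p = 0.0414) and from day 1 to day 8 (-1.19 ± 0.39, adjusted p = 0.0251). The day 5 to day 8 call ended in 16 of 22 alternatives, among them the replicate block (adjusted p = 0.0514), and the day 1 to day 8 call in 6 of 22, among them leaving out any del/del library of either day (adjusted p from 0.0638 to 0.115).

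Meis1 and Pbx3 showed the same separation of libraries at day 8 without passing the test, and the share of all genes so separated was not counted. At that day 4 of the 8 genes (these 2, Meis2 and Pbx4) had an unadjusted p under 0.05 by limma, as did 34.5% of all tested genes. Meis1 differed by 1.67 ± 0.53 (log2, del/del minus fl/fl, adjusted p = 0.0546 by limma), and with the cell line as a block it was called (adjusted p = 0.0419), as it was by voom on read counts (1.84 ± 0.42, adjusted p = 0.0203). Pbx3 differed by 1.12 ± 0.43 (adjusted p = 0.0922). On the deposited scale, where 22.9% of all genes were called higher and 0.484% lower, Meis1 (2.55, adjusted p = 0.0118) and Pbx3 (2.00, adjusted p = 0.0198) were both called. Leaving out the del/del library of line 1 or of line 3 at day 5, which is in neither day 8 group, left both differences unchanged. The calls gained there rest on a smaller pooled standard error and not on values of day 8. Meis1 was called with total reads as the scale (1.80, adjusted p = 0.0424) and with no filter on low values (1.96, adjusted p = 0.0422) too. Most alternatives kept both genes uncalled, 14 of 22 for Meis1 and 19 of 23 for Pbx3. Over all of them the difference ran from 1.315 to 2.55 for Meis1 and from 0.92 to 2.00 for Pbx3. The del/del library of line 3 at day 5 had been set apart by its values for 4 of the 8 genes, so leaving it out adds no support. Without the 2 libraries that stood apart, fl/fl at day 8 keeps 1 library. The differences at that day were then 1.34 (Meis2), 2.03 (Meis1), 1.18 (Pbx3) and -1.80 (Pbx4). The remaining 4 genes had differences of -0.10 (Meis3), 0.17 (Pbx2), -0.32 (Pknox1) and 0.73 (Pknox2), with standard errors of 0.45, 0.15, 0.21 and 0.71.

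**Figure D3:**
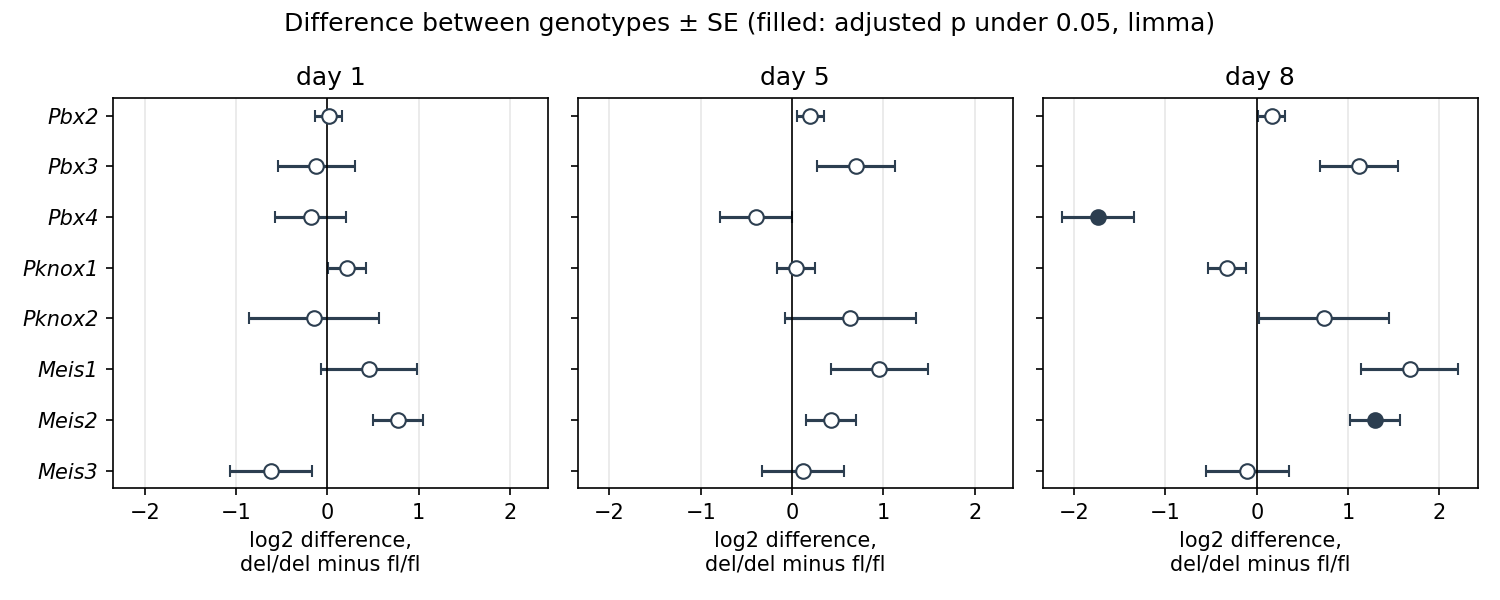
Difference between del/del and fl/fl cells for the 8 genes at days 1, 5 and 8, as log2 differences with their standard errors; filled points have an adjusted p under 0.05 (limma). No point is filled at days 1 and 5, and at day 8 Meis2 (1.30) and Pbx4 (-1.74) are.

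At days 1 and 5 none of the 8 genes was called by limma or by voom, and 1 of 14063 genes was called by limma at each (0.00711%), in both cases a lower one. At day 1, Meis2 had the only unadjusted p under 0.05 among them, as did 1.21% of all genes. Its del/del levels of -0.30 and -0.22 lay above the fl/fl levels of -1.21 and -0.87 (difference 0.78 ± 0.27, adjusted p = 0.9999 by limma). At day 5 no unadjusted p was under 0.05. The del/del libraries of that day disagreed with each other: line 3 lay above line 1 for Pbx3 (2.42 against 0.93), Meis1 (1.07 against -0.23) and Pknox2 (1.13 against -1.04) and below it for Pbx4 (0.13 against 1.11). The fl/fl libraries of day 5 stood at 0.99 and 0.97 for Pbx3, -0.56 and -0.51 for Meis1, -0.38 and -0.80 for Pknox2 and 0.96 and 1.07 for Pbx4, closer to line 1 than to line 3 of del/del in each case. Without the line 3 library the day 5 difference of Pbx3 was -0.045 and that of Pbx4 0.091, and without the line 1 library Pbx3 was called (1.44, adjusted p = 0.024), in a fit where 11.2% of all genes were called at day 5 in place of 0.00711%.

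Averaged over the 3 days, none of the 8 genes was called (0.107% of all genes were, 0.0356% higher and 0.0711% lower), although 4 had an unadjusted p under 0.05, as did 24.5% of all tested genes: Meis2 (0.83 ± 0.16, adjusted p = 0.0627), Meis1 (1.03 ± 0.30, adjusted p = 0.0941), Pbx4 (-0.77 ± 0.23, adjusted p = 0.0926) and Pbx3 (0.57 ± 0.25, adjusted p = 0.187), by limma. All 4 were called when the del/del library of line 1 at day 5 was left out, where 21.7% of all genes were. Meis2 and Pbx4 were called without the fl/fl library of line 1 at day 8 (adjusted p = 0.012 and 0.0499), where 18.9% of all genes were. Without both libraries that stood apart, which leaves 1 library each in del/del at day 5 and fl/fl at day 8, the Meis2 difference was 0.78. On the shifted scale Meis2 was higher in del/del in 6 of 6 pairs of libraries of the same line and day. On the deposited scale the pair of line 3 at day 5 turned (2.73 in del/del against 2.76 in fl/fl). The pairs reuse the same 2 lines, and the share of all genes with such pairs was not counted. Whether the genotype difference itself changed from day 5 to day 8 was tested directly, and none of the 8 was called (0.00711% of all genes were): Meis2 gave 0.87 ± 0.39 (adjusted p = 0.361) and Pbx4 -1.34 ± 0.55 (adjusted p = 0.351). The differences at day 8 are therefore not shown to be larger than those at day 5.

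Ratios of 2 genes within a library do not depend on how the library is scaled. The log2 ratio of Meis2 to Pbx2 per kb at day 8 was -4.45 and -4.55 in fl/fl and -3.40 and -3.34 in del/del cells, and it had been -3.26 and -3.65 in fl/fl and -3.27 and -3.19 in del/del at day 5. Within each genotype both libraries of day 8 lay below both of day 5, by a wider gap in fl/fl than in del/del cells. The log2 ratio of Pbx4 to Pbx2 at day 8 was -2.96 and -3.26 in fl/fl and -5.04 and -4.99 in del/del cells, against -3.82 to -2.55 in all libraries of the earlier days. Here the del/del libraries of day 8 were the ones outside the earlier range. Together, the log2 ratio of Meis2 to Pbx4 was -1.49 and -1.28 in fl/fl and 1.64 and 1.66 in del/del cells at day 8. Per kb of annotated exon, Meis2 thus had fewer reads than Pbx4 in both controls and more in both deleted libraries. These are the 2 genes called in opposite directions at day 8 in the same libraries. Their ratio therefore restates those differences and adds no support to them. These ratios show unequal change and not which gene changed.

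Within the Meis genes, Meis1 and Meis2 were near parity per kb of annotated exon at day 1 and apart at day 5. The parity depends on the exon lengths, and the change between days does not. The log2 ratio of Meis1 to Meis2 lay between -0.28 and 0.46 at day 1 and between -3.13 and -1.95 at day 5. At day 8 it was -1.30 and -0.66 in fl/fl and -0.82 and -0.39 in del/del cells, and the genotypes overlapped. The log2 ratio of Meis3 to Meis2 at day 8 was 2.60 and 2.46 in fl/fl and 1.37 and 0.88 in del/del cells, without overlap. Because Meis2 was called at that day and Meis3 was not, this ratio restates the Meis2 difference and adds no support to it.

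**Figure D4:**
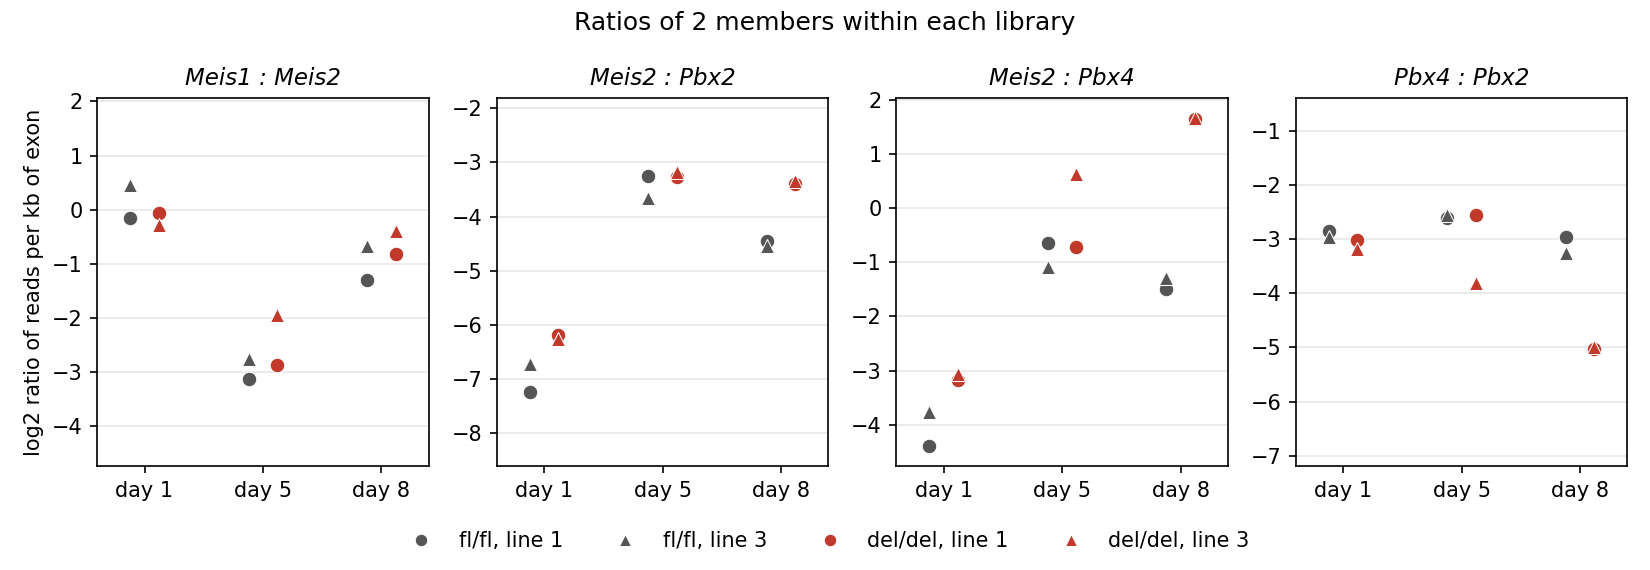
Log2 ratios of reads per kb of exon between 2 genes within each library, against sampling day (all vertical axes span the same range); grey is fl/fl, red is del/del, circles are line 1 and triangles line 3. At day 8 the Meis2 to Pbx4 ratio lies above 0 in both del/del libraries (1.64 and 1.66) and below 0 in both fl/fl libraries (-1.49 and -1.28). This ratio joins the 2 genes called in opposite directions at day 8 and so restates their differences. Its place relative to 0 depends on the annotated exon lengths.

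The genes whose profiles were most like those of the 3 Meis genes were found by the root-mean-square difference of centred log2 levels over the 12 libraries, among 11902 genes with a mean of at least 20 reads. For Meis2 they were Rbm24 (0.34), Gdf11 (0.37) and Stbd1 (0.38). For Meis3 they were Fgfrl1 (0.32), Speg (0.35) and Gramd4 (0.37), and for Meis1 they were Fam171a2 (0.44), Lix1l (0.46) and Dzip1l (0.47). The 12 libraries share 3 sampling days and 2 lines, so they are not independent points.

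The HOX genes, whose proteins these cofactors join, were described by paralog group. From day 1 to day 5, 33 of 38 tested Hox genes rose in fl/fl and 34 of 38 in del/del cells, the same step in which Meis2 and Meis3 rose. In that step 23% of all tested genes rose in fl/fl and 21.2% in del/del. At day 8, 7.95% of all tested genes were called higher in del/del cells and 7.05% lower. No tested Hox gene was lower, and 5 of 11 of paralogs 1 to 4 were higher (median log2 difference 2.53, where the median of all genes was 0.015). So were 4 of 11 of paralogs 5 to 8 (1.76), 2 of 7 of paralogs 9 and 10 (1.90) and 6 of 9 of paralogs 11 to 13 (3.08). Among them Hoxd12 was 17.3-fold higher (log2 4.11 ± 0.79 SE, adjusted p = 0.0143 by limma), Hoxd13 11.6-fold (3.54 ± 0.73, adjusted p = 0.0165) and Hoxb1 9.69-fold (3.28 ± 0.73, adjusted p = 0.02). The 8 cofactor genes had a median difference of 0.45 in the same comparison. With only the 2 groups compared in the fit, 0 of 14063 genes were called at day 8. The day 8 calls of Hox, retinoic acid and partner genes therefore end there too. They were not followed one by one under the other alternatives.

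Of the genes of retinoic acid synthesis, binding, receptors and clearance, 7 of 14 tested were higher in del/del cells at day 8 and none lower, with a median of 1.24. Of all tested genes 7.95% were called higher and 7.05% lower. Rarg, which encodes a retinoic acid receptor, was 3.36-fold higher (log2 1.75 ± 0.22 SE, adjusted p = 0.00498 by limma), and Crabp2, whose product carries retinoic acid to the nucleus, was 22.8-fold higher (4.51 ± 0.98, adjusted p = 0.0190). In fl/fl cells Rarg fell from day 5 to day 8 (-0.91 ± 0.22, adjusted p = 0.0346), and in del/del cells it rose (0.76 ± 0.22, adjusted p = 0.0461), while the test of the difference between these steps did not pass (1.67 ± 0.31, adjusted p = 0.156). From day 1 to day 5, 5 of these 14 genes rose in each genotype, where 23% of all tested genes rose in fl/fl and 21.2% in del/del. Among the 5 was Stra6, which encodes the retinol-binding protein receptor (27.2-fold in fl/fl, 4.77 ± 0.79, adjusted p = 0.000818 by limma). Rarg fell 3.32-fold in fl/fl cells in that step (-1.73 ± 0.22, adjusted p = 0.000148 by limma).

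Of 8 other TALE genes 1 was called at day 8, and of 10 genes known to bind or control PBX and MEIS proteins 1 was, where 15% of all tested genes were called. The TALE gene was Tgif1, a corepressor of TGF-beta signalling, lower in del/del cells (-0.86 ± 0.24, adjusted p = 0.0366 by limma), though its difference was 0.024 on the deposited scale. Mkx, a regulator of tendon cells, differed by 2.04 ± 0.64 (adjusted p = 0.0536). Of the regulators and partners, the gene called was Trib2, a pseudokinase gene that MEIS1 activates in leukaemia, higher in del/del cells (2.84-fold, 1.51 ± 0.26, adjusted p = 0.0100). Pbxip1, whose product binds PBX proteins, rose 3.44-fold from day 1 to day 5 in fl/fl cells (1.78 ± 0.26, adjusted p = 0.000406). The caudal genes Cdx1 and Cdx2, regulators of Hox genes, rose 98.6-fold (6.62 ± 0.32, adjusted p = 8.64e-07) and 34.0-fold (5.09 ± 0.28, adjusted p = 1.88e-06) in that step.

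Markers of other cell types also moved at day 8, and their part in the differences of Meis2, Meis1, Pbx3 and Pbx4 was not tested. Of all tested genes 7.95% were called higher and 7.05% lower at that day. Fibroblast markers summed to 56.7 to 218 RPM in fl/fl and 453 to 568 in del/del cells (2 of 8 higher), paraxial mesoderm markers to 6.89 to 9.65 and 14 to 24.4 (2 of 8 higher), and neural progenitor markers to 19.4 to 20.1 and 33.8 to 44.1 (2 of 7 higher, 1 lower). Trophoblast markers summed to 198 to 498 in fl/fl and 76.3 to 105 in del/del cells (4 of 7 lower), neuron markers to 263 to 569 and 80.7 to 172 (1 of 5 higher, 2 lower), and endothelial and blood markers to 19.7 to 32.3 and 3.6 to 8.5 (1 of 5 lower). Pluripotent cell markers summed to 78.3 to 83.9 and 57.5 to 69.8 (1 of 8 higher, 2 lower). Neuromesodermal and caudal markers (37.3 to 43.3 and 40.7 to 42.6, 1 of 8 higher) and lateral and intermediate mesoderm markers (16.1 to 25.7 and 12 to 19.2, 1 of 4 higher, 1 lower) overlapped between the genotypes. Extraembryonic endoderm markers (29 to 58.1 and 9.77 to 26.9, 0 of 6 called) did not overlap. Defining markers without a read in any library of their group at day 8 were Wnt3a, Meox1, Sox1 and Hbb-bh1 in fl/fl and Gata1, Ttr and Elf5 in del/del cells.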

How the data were processed

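RNA-seq was analysed for 12 libraries, 2 in each of 6 groups. The authors deposited log2 RPM (log2 values of reads per M reads) per gene. The submitters' processing notes name genome build mm10, edgeR, TopHat2 2.0.12 and bcl2fastq, and their roles are not given in the sources used here. Taken out of the log2, each value is a whole number of reads within 0.02 reads, with 0 reads entered as 0.9, which gave the read numbers. Genes with a deposited log2 above 0 in at least 2 libraries were tested (14063). Each library was shifted by the median deviation of its genes, and 6 group means were fitted over all 12 libraries with limma 3.58.1 (mean-variance trend) in R 4.3.3, with Benjamini-Hochberg adjustment over all tested genes and a threshold of 0.05. The fit was tested on simulated data. Exon lengths and overlaps came from GENCODE M21, which held 87.6% of the gene names.

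The genes and lists were chosen with earlier results of these data known, so no list serves as independent support. All 8 genes are named, with Smchd1, the 3 genes most like each gene that spans at least 2 log2 units over the group means, and up to 3 genes of smallest p per list and comparison. The lists were other TALE, 4 Hox paralog groups, retinoic acid, PBX and MEIS regulators and partners, and markers of 10 cell types. Alternatives were the deposited scale, total reads in genes, no or a stricter filter, 2 added reads, a replicate block, voom on reads, a fit of only the groups compared, and leaving out each library. Replicate numbers mark the same ES line, so they pair the samples; deviations of same-numbered libraries correlated between genotypes by 0.135 at day 1, -0.154 at day 5 and -0.111 at day 8. p-values rest on the spread between the 2 lines within a group, pooled over the 6 groups and drawn towards a trend over all genes. They do not measure the spread of the compared groups alone.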

Additional observations from a re-analysis of the deposited data

How the results depend on the processing

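Differences of single genes smaller than their own standard error, whose direction is the least certain, were left out of this count. The 58 that remained were recomputed under up to 23 alternatives. Of 1315 values, 1220 kept their direction and side of the threshold, 42 lost a call, 38 gained one and 15 turned direction. Of these 15, the Pbx2 rise from day 1 to day 8 in fl/fl was the only one called to begin with and none was called after turning. On the deposited scale Pbx2 turned to -0.17 between genotypes at day 5, -0.62 from day 1 to day 5 in del/del, -0.089 from day 5 to day 8 in fl/fl and -0.36 from day 1 to day 8 in fl/fl. There Pknox1 turned to 0.56 between genotypes at day 8, 0.89 for its change from day 5 to day 8 and -0.061 from day 5 to day 8 in fl/fl; the shift of the median gene is part of these values by construction. Without del/del line 3 at day 5 (alone or with fl/fl line 3 of day 8) the day 5 difference was -0.045 for Pbx3 and 0.091 for Pbx4, and without fl/fl line 3 of day 8 (likewise) that of Pknox2 at day 8 was -0.14. Without del/del line 1 of day 1, Meis3 gave 0.23 at day 1 and -0.11 for its change to day 5. Over all left-out libraries these differences ran from -0.045 to 1.44, from -0.88 to 0.091, from -0.14 to 1.61, from -1.47 to 0.23 and from -0.11 to 1.59. The 2 genes called between genotypes at day 8 became 3 on the deposited scale (Pbx4 lost, Meis1 and Pbx3 gained) and with total reads, the replicate block or voom (Meis1 gained), and stayed 2 with no filter (Pbx4 lost, Meis1 gained). They became 1 under a stricter filter (which left 5 of the 8), 0 when only the compared groups were fitted, where no gene of the table was called, 0 to 4 when 1 library was left out and 4 without the 2 libraries that stood apart, an alternative chosen after seeing the data. Averaged over days, 0 became 0 to 4 when 1 library was left out and 1 without those 2 libraries. From day 5 to day 8 in del/del, 2 became 1 on the deposited scale, with total reads, without a filter and with the replicate block, 0 with the stricter filter or only the compared groups, 0 to 3 when 1 library was left out and 4 without the 2 libraries. From day 1 to day 8 in del/del, 5 became 3 on the deposited scale and with the stricter filter, and 4 to 5 when 1 library was left out. The other ranges on leaving out 1 library were 2 to 4 from day 1 to day 5 in del/del, 2 in fl/fl, 3 to 5 from day 1 to day 8 and 0 to 1 from day 5 to day 8 in fl/fl, 0 to 1 between genotypes at day 5, and 0 at day 1 and for both changes of the genotype difference. The causes were not tested beyond this.

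With the replicate block, the pairing of lines called Meis1 at day 8 (adjusted p = 0.0419) and ended the Pbx4 call from day 5 to day 8 in del/del (adjusted p = 0.0514), and no other call of the 8 genes changed. With the line numbers of the del/del libraries crossed at day 5 or at day 8, an alternative added after seeing the data, 1 gene was called from day 5 to day 8 in del/del. Over all genes, 2109 were called at day 8 between genotypes (1118 higher, 991 lower), 3295 on the deposited scale (3227 higher, 68 lower) 308 without fl/fl line 3 of day 8, 4655 without fl/fl line 1, 745 without del/del line 1 and 55 without del/del line 3. In the shallow fl/fl library of line 3 13 reads of Pbx4 (95% Poisson interval 6.92 to 22.2), 29 of Meis2 (19.4 to 41.6), 16 of Meis1 (9.15 to 26) and 14 of Pbx3 (7.65 to 23.5) limit the day 8 comparison.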
